A study of Mus musculus with 2 samples.

Results

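The IFITM genes and tetherin, which code for membrane proteins of antiviral defence, were followed in RAW264.7, an established macrophage-like cell line from mouse. The members are Ifitm1, Ifitm2, Ifitm3, Ifitm6, Bst2 (tetherin) and Gm45717, an annotated gene that overlaps Ifitm2. They were taken by gene name from the deposited expression table and make up 6 of its 24034 genes. They were chosen because reads of Ifitm2 appeared to have moved to Gm45717, so their differences are given as descriptions. Poly(A) RNA was sequenced in 2 libraries of this 1 cell line, 1 treated with SFRS8 siRNA and 1 labelled negative control, and both titles carry a 5 d mark whose starting point is not explained. SFRS8 is the splicing regulator Sfswap. With 1 library per group there is no replicate, no test and no p-value. Sfswap itself stood at 3.38 FPKM in the siRNA-labelled library and 2.92 FPKM in the control library, so the labelled target was not lower. Each direction given here is therefore read from the library's label, not from a measured loss of Sfswap.

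IFITM proteins are small membrane proteins of the CD225 family that sit in the plasma membrane and in endosomes, where they hinder the fusion of enveloped viruses with the cell. Tetherin holds budding virus particles at the cell surface through a membrane anchor at each end. Both kinds of gene are induced by interferon through receptor-linked kinases and the transcription factors they activate, and have a basal level in many macrophages. Ifitm3 is the member best known for restricting influenza virus in mice, Ifitm1 and Ifitm2 are its close relatives, and Ifitm6 is a mouse relative known from macrophages.

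The 5 IFITM-related genes lie within 68703 bases of chromosome 7, and Bst2 lies alone on chromosome 8. Coordinates are those of the deposited table, which for all 6 members equal those of GENCODE vM21 on GRCm38. Gm45717 (ENSMUSG00000110104, chr7:140949222-140955937) and Ifitm2 (ENSMUSG00000060591, chr7:140954837-140955987) are on the minus strand. Ifitm1 (ENSMUSG00000025491, chr7:140967221-140969825) is on the plus strand, 11233 bases from Ifitm2. Ifitm3 (ENSMUSG00000025492, chr7:141009586-141010770) and Ifitm6 (ENSMUSG00000059108, chr7:141015699-141017924) are on the minus strand and 4928 bases apart. Bst2 (ENSMUSG00000046718, chr8:71534255-71537456) is on the minus strand.

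Gm45717 is annotated as a protein-coding transcript of 495 nt built entirely from exons of its neighbours. Its exon 1, of 268 nt, lies inside the 318 nt exon 1 of Ifitm2. Its exon 2, of 227 nt, lies inside exon 2 of Ifitm5, a relative known for its role in bone-forming cells. Exon 2 of Ifitm2 is 337 nt and is not part of Gm45717. All 495 nt of Gm45717 are thus also exon sequence of Ifitm2 or Ifitm5, and only the join between them, across an intron of 6221 nt against 496 nt in Ifitm2, is its own. The exon junctions are shown because this join is what separates the transcripts; each line has the last 30 bases of exon 1 in lower case and the first 30 bases of exon 2 in capitals, 5′ to 3′ along the minus strand of GRCm38, from the GENCODE vM21 transcripts.
Ifitm2, chr7:140955670-140955699 and chr7:140955144-140955173: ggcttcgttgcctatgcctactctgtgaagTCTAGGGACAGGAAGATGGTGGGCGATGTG
Gm45717, chr7:140955670-140955699 and chr7:140949419-140949448: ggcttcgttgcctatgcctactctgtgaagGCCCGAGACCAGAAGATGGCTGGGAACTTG
Ifitm5, chr7:140950018-140950047 and chr7:140949419-140949448: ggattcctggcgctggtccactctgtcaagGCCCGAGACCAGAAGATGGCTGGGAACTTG
Ifitm3, chr7:141010397-141010426 and chr7:141009860-141009889: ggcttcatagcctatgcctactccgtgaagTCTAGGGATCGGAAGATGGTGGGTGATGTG
The lower-case part of Gm45717 has 0 mismatches to Ifitm2 and its capitals have 0 mismatches to Ifitm5. The capitals of Ifitm2 and Gm45717 differ at 12 of 30 bases, whereas Ifitm2 and Ifitm3 differ at 3 of 30 bases on each side of the join.

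**Figure D1:**
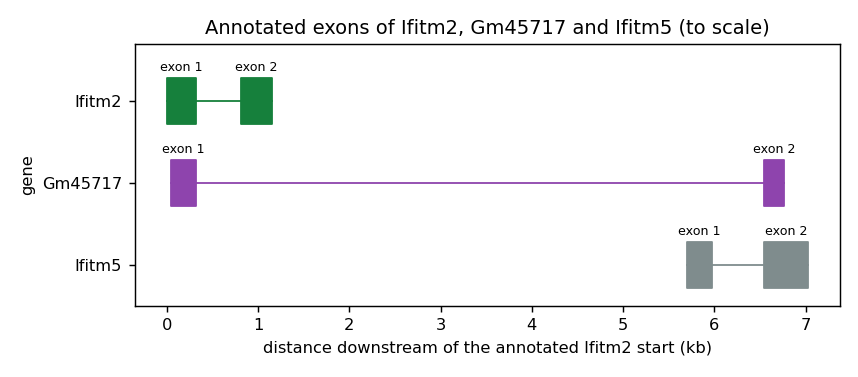
Annotated exons of Ifitm2, Gm45717 and Ifitm5, drawn to scale by distance in kb downstream of the annotated Ifitm2 start; boxes are exons and lines are introns. The 268 nt exon 1 of Gm45717 sits under exon 1 of Ifitm2, and its 227 nt exon 2 sits above exon 2 of Ifitm5.

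Ifitm3 was the most abundant member in both libraries, and Ifitm1 was near the limit of detection. FPKM is a level per transcript length and library size, so levels of different genes can be set side by side. Ifitm3 stood at 2058 FPKM in the siRNA-labelled and 2399 FPKM in the control library, with ranks of 33 and 26 among all genes listed. Bst2 stood at 651 FPKM and 684 FPKM. Bst2 had ranks of 118 and 119, so both genes were among the most abundant transcripts of the line. Ifitm6 stood at 44.1 FPKM and 44.0 FPKM, and Ifitm1 at 0.47 FPKM and 0.17 FPKM, from 32 and 12 estimated counts. Ifitm1 was thus detected from about 8 and 3 read pairs, if 1 read pair gives about 4 of the deposited counts. That unit was inferred from the values alone, and the counting intervals rest on it.

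The order of levels differed between the libraries in the places of Ifitm2 and Gm45717. In the control library the order was Ifitm3, Bst2, Ifitm2 (671 FPKM), Ifitm6, Ifitm1 and Gm45717 (listed at 0). Bst2 and Ifitm2 were neighbours there whose counting intervals overlapped, 671 to 698 FPKM and 655 to 687 FPKM (95% exact Poisson limits on read pairs, which cover counting error only). In the siRNA-labelled library the order was Ifitm3, Bst2, Gm45717 (521 FPKM), Ifitm2 (208 FPKM), Ifitm6 and Ifitm1, and no neighbouring intervals overlapped. Ifitm3 stood at 3.58 times the level of Ifitm2 in the control library and at 9.90 times in the siRNA-labelled library, while its level was 3.51 and 3.16 times that of Bst2.

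**Figure D2:**
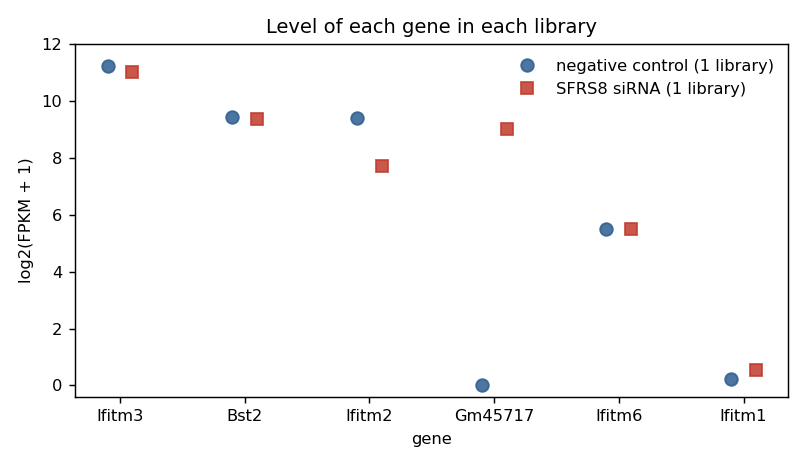
Level of each gene as log2(FPKM + 1) on the vertical axis, with circles for the negative control library and squares for the SFRS8 siRNA library (1 library each, no error bars). Ifitm3, Bst2 and Ifitm6 nearly coincide, Ifitm2 is lower in the siRNA-labelled library, and Gm45717 is at 0 in the control library.

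Ifitm2 was lower and Gm45717 higher in the siRNA-labelled library by amounts that nearly cancelled. Ifitm2 had 8349 estimated counts in the siRNA-labelled library against 26693 for the control, a ratio of counts per library total of 0.31 (0.29 to 0.33; 95% exact Clopper-Pearson limits on read pairs, counting error only, as for all ratios below). Gm45717 had 15834 counts against 0, or 1306-fold if the control library is set to a floor of 12 counts (3 read pairs). The lower 95% limit of its ratio, by the same exact method as above, was 1062. Both figures take the counts as assigned, although all 495 nt of Gm45717 are also exon sequence of Ifitm2 or Ifitm5. They therefore set no bound on how reads were divided between the overlapping genes. On the scale of log2(FPKM + 1), the siRNA-labelled library minus the control gave -1.69 and 9.03, and the pseudocount of 1 sets the size of the second. Of the counts of both genes, Gm45717 took 65.5% in the siRNA-labelled library and 0% in the control library.

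Whether the pair as a whole was lower or higher depended on the unit. Summed counts were 24183 against 26693, a ratio per total of 0.90 (0.87 to 0.93) or -0.16 on the log2 scale. Summed FPKM was 729 against 671, a difference of 0.12 in the other direction. The deposited counts of Ifitm2, Ifitm3 and Gm45717, each with 1 listed transcript, were a constant multiple of FPKM and transcript length, at 61.3 counts per FPKM and kilobase in the siRNA-labelled library for all 3 genes. Counts assigned to the 495 nt transcript therefore weigh less in a sum of counts than the same FPKM on the 655 nt transcript of Ifitm2. Ifitm5, whose exon 2 Gm45717 also uses, had 39 against 31 counts (0.83 and 0.65 FPKM), and adding it left the log2 ratio at -0.16.

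The values per transcript imply a depth for each exon, although the table holds no reads by exon. Counts divided by transcript length give 40.8 counts per nucleotide over both exons of Ifitm2 in the control library. In the siRNA-labelled library the same arithmetic gives 44.7 over the shared exon 1, 12.7 over exon 2 of Ifitm2, and 32.0 over exon 2 of Gm45717 with Ifitm5 included. The exon 2 of Gm45717 had an implied 0.041 counts per nucleotide in the control library. This reckoning spreads each gene's counts evenly over its transcript, so it restates the gene values, and it is not scaled to library totals. By it, the libraries differ little over the shared exon and differ in how the counts are divided between the second exons. Whether reads crossed the Gm45717 junction was not tested, because the table holds neither reads nor junctions.

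**Figure D3:**
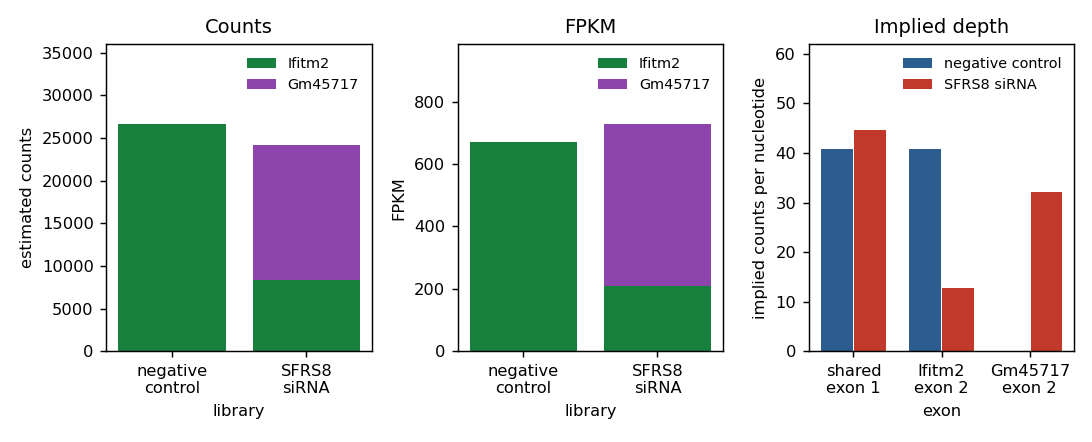
Estimated counts (left) and FPKM (middle) of Ifitm2 and Gm45717 stacked for each library, and counts per nucleotide implied over 3 exons (right); 1 library per bar, with all vertical axes starting at 0. The stacked counts are lower in the siRNA-labelled library (24183 against 26693) and the stacked FPKM higher (729 against 671).

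Other overlapping pairs are set beside Ifitm2 and Gm45717 as a description only, since that pair was chosen on this same contrast. Of 892 pairs of listed genes whose exons overlap on the same strand and that together reached a mean of 1 FPKM, 5 pairs (0.561%) held 1 gene past 2-fold on the higher side and 1 on the lower side. Ifitm2 with Gm45717 had the widest gap between the differences of its genes, 10.7 on the log2 scale, and it belongs to the pairs by the rule that chose it. The pseudocount of 1 sets the size of that gap, because Gm45717 was at 0 in the control library. The other 4 pairs were Pdxp with Gm49510, Adnp with Gm20716, Dpm1 with Gm20716, and Mrpl53 with Gm42688. Pdxp, a phosphatase gene, had 3338 against 658 counts while Gm49510 had 0 against 1787. Adnp had 758 against 7 counts and Dpm1 1109 against 255, while Gm20716, which overlaps both, had 0 against 1032. Mrpl53, a mitochondrial ribosome subunit, had 654 against 1800 counts while Gm42688 had 2121 against 772. In all 5 pairs the summed counts per total differed by less than 1.5-fold. Among the 5 genes listed at 0 in the control library and at 10 FPKM or more in the siRNA-labelled library, Gm45717 had the second highest level after Gm10260 (3617 FPKM). In the reverse direction, 3 genes were listed at 0 in the siRNA-labelled library and at 10 FPKM or more in the control, the highest at 2009 FPKM.

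The other abundant members differed little. Ifitm3 had 85585 against 98850 counts, a ratio of 0.86 (0.84 to 0.87), and a difference of -0.22. Bst2 had 36082 against 37552 counts, a ratio of 0.95 (0.92 to 0.98), and a difference of -0.07. In the siRNA-labelled library both lay a little below the control, by more than counting error but with no replicate to show how far 2 libraries of the same kind differ. Ifitm6 had 2450 against 2422 counts, a ratio of 1.001 (0.89 to 1.12), and a difference of 0.003, which becomes -0.11 when centred on the median of all genes. The ratio of Ifitm1 was 2.64, with an interval from 0.63 to 15.4 that leaves its direction undetermined at this depth.

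Set against all genes, the members past 2-fold were the overlapping pair. The comparison covered the 10214 genes whose mean reached 1 FPKM. Differences of 2-fold or more were found for 1.97% of them, 1.18% on the higher side (121 genes) and 0.783% on the lower side (80 genes). Centring on the median of all genes turned this split into 99 and 108. Among the 6 members 5 passed this minimum, Ifitm1 being left out, and Gm45717 was higher and Ifitm2 lower; nothing is read from this count, since the members were chosen on the same contrast. The median difference was 0.11 over all genes but -0.08 over the 556 genes whose mean reached 100 FPKM, whose middle 50% ran from -0.20 to 0.06. Bst2 lay inside that range and Ifitm3 just below it. Differences also followed the GC content of the transcript, with a median of 0.34 in the lowest and -0.03 in the highest of 10 equal bins. The bins holding Ifitm3 (51.8% GC), Bst2 (55.3%) and Ifitm6 (45.9%) had medians of 0.05, -0.004 and 0.24, and the part of GC content in the members' differences was not tested.

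**Figure D4:**
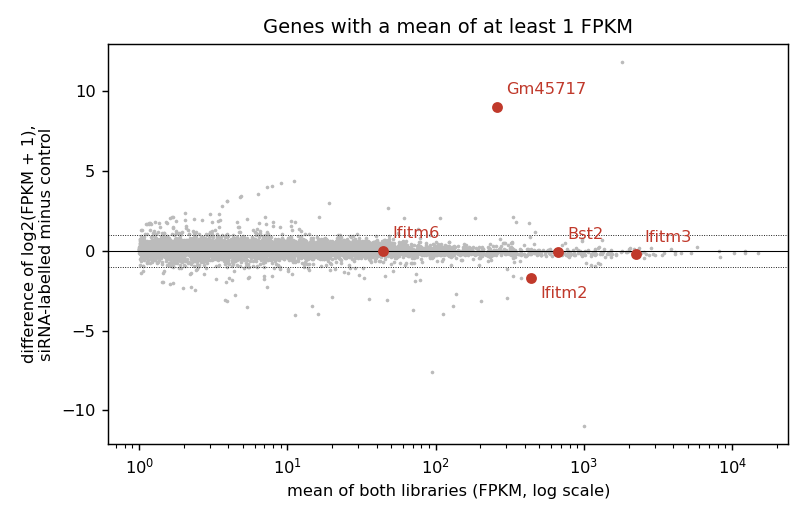
Difference between libraries (siRNA-labelled less control, log2 of FPKM + 1) against the mean FPKM of both libraries on a log axis, for 10214 genes (grey points), with dotted lines at 2-fold. Gm45717 and Ifitm2 lie past the lines at 9.03 and -1.69, while Ifitm3, Bst2 and Ifitm6 lie between them.

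Members also share sequence with each other, to unequal degrees. Coding sequences of Ifitm2 and Ifitm3 were 79.8% identical over 411 aligned bases, those of Ifitm1 and Ifitm3 81.3%, and those of Ifitm3 and Ifitm6 62.4%. Of the windows of 50 nt in the Ifitm3 transcript, 10.0% occur in another annotated gene, against 0% for Ifitm6 and Bst2, 48.5% for Ifitm2 and 89.7% for Gm45717. Ifitm2 shares 36.1% of its windows with Gm45717 and 3.30% with Ifitm3. The longest run that Ifitm2 and Ifitm3 share in their coding sequences is shown because a read within it has no single origin. It is 69 bases, lies in exon 1 of both, falls in the stretch of exon 1 that Gm45717 shares with Ifitm2, and reads as follows along the minus strand of chromosome 7.
Ifitm2, Ifitm3 and Gm45717: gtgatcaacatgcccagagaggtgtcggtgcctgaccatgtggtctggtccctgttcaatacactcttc
Outside the family, shared windows lie in 6 processed pseudogenes, 1 of which, Gm11951, also holds the run above. Of these, 3 are in the table, with 0 to 12 counts each in either library, so few counts were assigned to those 3 copies. Gm2840, Gm45432 and Gm7676 are not listed, so nothing can be said of their counts.

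All IFITM-related genes together were somewhat lower in the siRNA-labelled library. With Gm45717 included their counts summed to 112250 against 127977, a ratio of 0.87 (0.85 to 0.88), and without it to 96416 against 127977, a ratio of 0.75 (0.73 to 0.76). On the log2 scale these are -0.20 and -0.42, so the size of the difference depends on whether Gm45717 is counted with the family. Ifitm3 made up 76.2% and 77.2% of the family's counts. With Bst2 added, the 6 members held 148332 against 165529 counts, or 0.268% and 0.302% of each library.

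A motif of interferon-responsive promoters was present close to the start sites of Ifitm2, Ifitm3 and Bst2. Promoter sequences of RefSeq genes (GRCm38.p6, 250 bases before to 50 after the start site) were matched for 5 of the 6 members, Gm45717 having no entry. The motif searched on both strands was GAAA, any 2 bases and GAAA again, the core spacing of the interferon-stimulated response element, and overlapping matches were kept. It occurred in 3.44% of 32851 promoters of 300 bases. Ifitm2 had 1 match, and Ifitm3 and Bst2 had 2 each, which in Bst2 overlap. Ifitm1 and Ifitm6 had none in this window, which says only that these letters are not there. The stretches are shown because they carry these matches, given in capitals, 5′ to 3′ on the minus strand.
Ifitm2, chr7:140955973-140956032: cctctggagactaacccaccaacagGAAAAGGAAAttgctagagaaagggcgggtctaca
Ifitm3, chr7:141010715-141010767: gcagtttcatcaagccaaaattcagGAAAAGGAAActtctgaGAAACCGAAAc
Bst2, chr8:71537562-71537627: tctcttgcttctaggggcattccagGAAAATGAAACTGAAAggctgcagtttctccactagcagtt
With the RefSeq start site counted as 0, the match of Ifitm2 began at -46, those of Bst2 at -130 and -124, and those of Ifitm3 at 2 and 19. The match of Ifitm2 and the first match of Ifitm3 have the same 10 letters. Among promoters of the other antiviral genes listed below, 15 of 42 (35.7%) held the motif.

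Beyond the members, the CD225 family was nearly silent in these cells. Of 14 family genes listed, 11 were in the table and 3 reached a mean of 1 FPKM, namely Ifitm2, Ifitm3 and Ifitm6. Ifitm5 stood under 1 FPKM, Ifitm10 had 16 against 0 counts, and Syndig1 and Syndig1l, known from synapses, were listed at 0 in both libraries.

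Genes of the interferon receptor and its signalling chain were expressed in both libraries and differed by less than 2-fold. Of 13 measured genes of 14 listed, 11 were above 0 and 2 below, against 66.9% of all genes above 0, and the median was 0.13 against 0.11. On the log2(FPKM + 1) scale 0 passed 1.5-fold, against 4.91% of all genes on the higher and 2.18% on the lower side. That scale understates differences at low levels, and the count ratios of Ifngr1 and Jak2, given below, were above 1.5. The receptor chain Ifnar1 stood at 6.38 against 4.49 FPKM and Ifnar2 at 25.01 against 22.8 FPKM. Of the transcription factors, Stat2 stood at 2.19 against 2.12 FPKM and Irf9 at 6.57 against 5.93 FPKM. Of the receptor kinases, Jak2 stood at 4.19 against 2.75 FPKM (ratio 1.52, 1.28 to 1.83) and Tyk2 at 12.1 against 12.3 FPKM. Irf7, which amplifies interferon responses, stood at 67.7 against 69.6 FPKM, and Usp18, a negative regulator of the receptor, at 39.8 against 35.9 FPKM. The largest difference was that of Ifngr1, a chain of the interferon gamma receptor, at 2.80 against 1.57 FPKM (ratio 1.78, 1.32 to 2.44).

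Of 39 other antiviral effectors listed, 26 were measured. Of these 21 (80.8%) were above 0 and 5 below, against 66.9% of all genes above 0, and the median was 0.20 against 0.11. On the log2(FPKM + 1) scale 1 of the 26 passed 1.5-fold, on the higher side, against 4.91% of all genes higher and 2.18% lower. That count leaves out Ifit2, described below, because of its low mean. The scale also understates differences at low levels. The count ratios of Zbp1 (1.85, 1.34 to 2.60) and Rsad2 (1.65, 1.22 to 2.24) were above 1.5 too. Rtp4 stood at 4.02 against 1.92 FPKM (ratio 2.09, 1.55 to 2.898), and Oasl1, which restrains interferon production in mice, at 25.2 against 17.1 FPKM (1.47, 1.33 to 1.63). Zbp1, a nucleic acid sensor, stood at 2.005 against 1.08 FPKM. Serinc3, a membrane protein that lowers the infectivity of retroviruses, stood at 179 against 132 FPKM (1.351, 1.31 to 1.39).

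The 3 lowest differences were those of Shisa5, Ly6e and Ifi27l2a. Ly6e, a membrane-anchored protein that hinders coronavirus entry, stood at 316 against 361 FPKM (ratio 0.87, 0.86 to 0.89). Shisa5 stood at 58.1 against 67.9 FPKM (0.86, 0.81 to 0.90) and Ifi27l2a at 651 against 704 FPKM (0.92, 0.89 to 0.96). Other interferon-induced genes of the list, picked with their values known, ranged widely in level and in difference. The largest difference of the list was that of Ifit2, which lay under the minimum mean of 1 FPKM, at 1.73 against 0.081 FPKM or 419 against 20 counts (ratio 20.7, 8.63 to 65.3). Ifit1 stood at 0.24 against 0.21 FPKM, Mx1 at 0 against 0.016 FPKM, Rsad2 at 1.80 against 1.09 FPKM and Isg15 at 22.1 against 16.6 FPKM. Oas1a and Oas3, sensors of double-stranded RNA, were more abundant, at 69.7 against 67.3 FPKM and 44.3 against 45.2 FPKM.

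Enzymes that modify IFITM proteins and attach the membrane anchor of tetherin differed by less than 1.5-fold on the log2(FPKM + 1) scale. Over all genes, 4.91% passed that limit on the higher and 2.18% on the lower side. Of 14 measured genes of 16 listed, 10 (71.4%) were above 0 and 4 below, against 66.9% of all genes above 0, with a median of 0.18 against 0.11. Setd7, a methyltransferase that modifies IFITM3, stood at 2.77 against 1.81 FPKM (ratio 1.53, 1.32 to 1.77), below 1.5-fold only on the log2(FPKM + 1) scale. Zmpste24, a protease that acts with IFITM proteins, stood at 3.88 against 2.77 FPKM and Zdhhc20, which palmitoylates IFITM3, at 3.16 against 2.42 FPKM. Zdhhc1, another palmitoyltransferase of IFITM3, stood at 5.17 against 6.63 FPKM (0.78, 0.67 to 0.90). Pigt and Gpaa1, subunits of the enzyme that attaches glycosylphosphatidylinositol anchors, stood at 26.0 against 29.7 FPKM and 11.2 against 12.4 FPKM. Vcp, a segregase that handles ubiquitinated IFITM3, was the most abundant of the list, at 60.1 against 52.8 FPKM, followed by Pigs, a further subunit of the anchoring enzyme, at 43.6 against 44.6 FPKM.

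**Figure D5:**
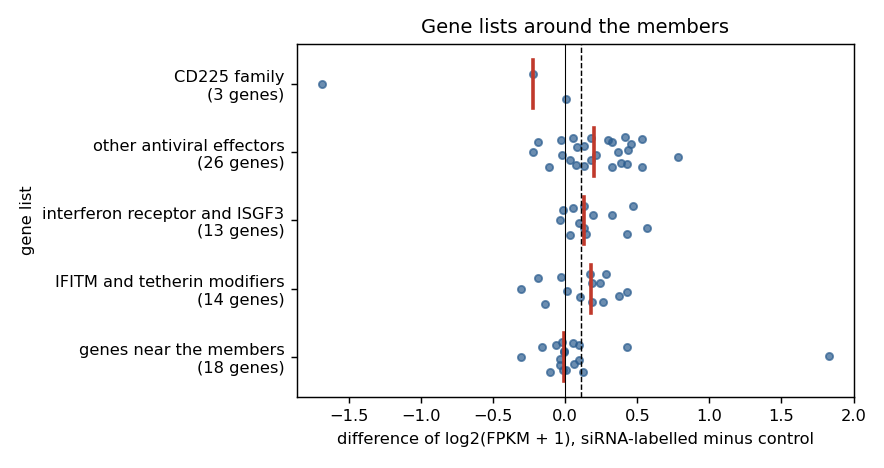
Difference between libraries (siRNA-labelled less control, log2 of FPKM + 1) for genes of 5 lists whose mean reached 1 FPKM; each point is a gene, red bars are list medians, and the dashed line is the median of all genes (0.11). All points of the interferon receptor and modifier lists lie within 1.5-fold on this scale, and Ifitm2 and Cox8b stand apart in their lists.

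Within 100 kb of the members lie 30 other listed genes, of which 18 were measured, 8 (44.4%) above 0 and 10 below, against 66.9% of all genes above 0, with a median of -0.01 against 0.11. On chromosome 7, Psmd13, a proteasome subunit, stood at 35.04 against 33.5 FPKM and Sirt3, a mitochondrial deacetylase, at 3.39 against 3.50 FPKM. Ric8a stood at 4.37 against 4.40 FPKM, Bet1l at 6.21 against 6.54 FPKM, Pgghg at 2.81 against 2.80 FPKM, Sigirr at 1.28 against 1.09 FPKM and Gm15542 at 4.01 against 2.73 FPKM. These neighbours of the IFITM genes all differed by less than 1.5-fold, unlike Cox8b on the same chromosome, given below. On chromosome 8, near Bst2, the lowest difference was that of Pgls, an enzyme of the pentose phosphate pathway, at 25.9 against 32.4 FPKM. Colgalt1 stood at 59.8 against 64.4 FPKM, Ano8 at 2.81 against 3.25 FPKM, Mvb12a at 32.8 against 30.7 FPKM and Unc13a at 2.12 against 1.91 FPKM. The other neighbours of Bst2 (Mrpl34, Dda1, Gtpbp3, Slc27a1 and Abhd8) had differences from -0.03 to 0.05. Cox8b, the heart and muscle form of a cytochrome oxidase subunit, lies on chromosome 7 near the IFITM genes. It had 57 against 0 counts, or 4.70-fold if the control library is set to the floor of 12 counts (lower 95% limit of the ratio 3.28). It was the 1 neighbour of the 18 measured past 2-fold, against 1.18% of all genes on the higher and 0.783% on the lower side. Cox8b reached the minimum mean only through the siRNA-labelled library, at 2.55 against 0 FPKM, so nothing is read from this count. Heart muscle markers were higher in the same library, as given next, and their part in the value of Cox8b was not tested.

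Markers of heart muscle, red blood cells and fibroblasts, each taken as a sum, had more counts in the siRNA-labelled library. Summed counts of 10 heart muscle markers were 12740 against 399, with Myl2, Myl3, Actc1, Nppa and Pln at 0 in the control library. Red blood cell markers (5 in the table) held 423 against 6 counts. Fibroblast markers (8) held 395 against 66 counts, none above 0.261 FPKM, with Lum at 0 in both libraries. Among these, Thy1 (50 against 46 counts) and Pdgfra (11 against 12) were nearly level. Col3a1 (129 against 0), Col1a1 (102 against 4), Col1a2 (44 against 0), Dcn (37 against 0) and Pdgfrb (22 against 4) were higher. Endothelial markers (7) held 941 against 834 counts, neutrophil markers (4) 137 against 139, and markers of plasmacytoid dendritic and B cells (2) 28 against 19. The endothelial sum was mostly Egfl7, at 708 against 680 counts, with Vwf at 109 against 107. Cdh5, Kdr and Tek had 19, 29 and 6 counts and were at 0 in the control library. Pecam1 had 55 against 39 counts and Tie1 15 against 8. The part of all these markers in the members' values was not tested. Macrophage markers were abundant in both libraries, 7 of 8 at 1 FPKM or more. Their sum of 1284053 against 1419842 counts was mostly Lyz2, at 13998 against 15652 FPKM, and the markers did not move one way. Cd68 stood at 947 against 1067 FPKM and Csf1r at 114 against 133 FPKM, while Adgre1 stood at 49.0 against 47.3 FPKM, Itgam at 29.6 against 26.8 FPKM and Fcgr1 at 13.5 against 12.7 FPKM. In bulk RNA, fewer cells of a type and less RNA per cell cannot be told apart.

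The genes nearest to Ifitm3, Bst2 and Ifitm6 over the 2 libraries were found by distance in log2(FPKM + 1). Nearest to Ifitm3 were Rpl19, Rpl32 and Gm13394, the first of these at 2132 against 2446 FPKM and a distance of 0.058. Ifi27l2a, also an interferon-induced gene, was nearest to Bst2, at a distance of 0.040, followed by Atp6v0c-ps2 and Tubb5. Napa, Eif4g1 and Rer1 were nearest to Ifitm6. With 2 libraries this likeness is a match of level and of 1 difference only.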

How the data were processed

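Both RAW264.7 libraries, made from poly(A) RNA, were grouped by treatment label. HISAT2 2.0 and StringTie 1.3.0 were used per the submitters' processing notes; the build, the annotation and the strand setting were not given in the sources used here. The table's coordinates matched GENCODE vM21 (GRCm38) for 89.9% of genes and for all 6 members. FPKM (fragments scaled to transcript length and library size) was computed by the authors, as the headers name it. Counts as deposited hold whole numbers that pile up on multiples of 4 (45.1% and 42.7% of counts from 1 to 20) and were treated here as estimated counts, 4 per read pair; they summed to 55411201 (siRNA-labelled) and 54847367 (control). Intervals cover counting error only. With 1 library per group no test was run; the measure was the difference of log2(FPKM + 1) over the genes whose mean reached 1 FPKM. Genes named in the text were the members, Sfswap, the 3 highest, 3 lowest and 3 most abundant measured genes of each list, measured neighbours within 100 kb, the 3 genes nearest to Ifitm3, Ifitm6 and Bst2, and the 5 opposite pairs with the widest gap; Irf9, Ifit1, Ifit2, Rsad2, Oas1a, Oas3, Mx1, Isg15, Ifitm5, Ifitm10, Syndig1, Syndig1l and Gm10260 were added after their values were seen. Members and lists were chosen with earlier results of these data known. Alternatives were another pseudocount, filters, counts in place of FPKM and centring, plus centring by GC bin, added after the data were examined. The rule of size and the intervals were tested on simulated counts, drawn from the counting model that the intervals assume (Poisson, 4 counts per read pair). Spread between libraries and reads shared by overlapping genes were not simulated. Unmatched columns of values numbered 0. Software comprised Biopython 1.88, matplotlib 3.10.9, scipy 1.17.1, pandas 2.3.3 and numpy 2.4.6 under Python 3.11.15.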

Additional observations from a re-analysis of the deposited data

How the results depend on the processing

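The direction of the summed pair depended on the unit. Ifitm2 and Gm45717 together differed by -0.16 in counts, by 0.12 in FPKM and by -0.29 in counts centred on the median of all genes. The differing transcript lengths, 655 and 495 nt, set the first gap by construction. Centring moved Ifitm2 to -1.80, Ifitm3 to -0.33 and Bst2 to -0.18. Centring within bins of GC content, chosen after the data were seen, gave -0.28 for Ifitm3 and -0.24 for Ifitm6. Gm45717 differed by 12.3 with a pseudocount of 0.1 and by 11.9 in scaled counts, since the control library is at 0. All members together differed by -0.12 in FPKM and -0.30 after centring, against -0.17 in counts. The medians of the interferon receptor list and of the neighbours became 0.019 and -0.12 after centring. Genes past 2-fold, 121 higher and 80 lower, numbered 232 and 134 with a pseudocount of 0.1, 47 and 50 when the mean had to reach 5 FPKM, and 231 and 128 in scaled counts. Opposite overlapping pairs numbered 8 at 1.5-fold and 3 with a minimum mean of 5 FPKM, against 5. Ifitm2 stayed past 2-fold lower and Gm45717 past 2-fold higher under each alternative run on them. No paired analysis was possible because each group has 1 library. Low counts limit Ifitm1, which rests on about 8 and 3 read pairs.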
